A study of Mus musculus with 54 samples.

Results

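Ripor2 and Dab2 are 2 of the 33280 gene symbols in the count tables, of which 26332 had at least 1 count. They were chosen by their measured values, because lipopolysaccharide (LPS), a bacterial endotoxin, moved them in opposite directions in subdural CNS-associated macrophages and in microglia of wild-type mice. The wild-type differences that served for that choice are therefore given as descriptions without a test. The same genes were then tested in Ccr2-knockout mice and in reporter mice, whose libraries took no part in the choice.

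Bulk RNA-seq was made from macrophages sorted from mouse brain without choroid plexus, in 54 libraries from 24 mice that form 18 groups of 3. Microglia (MG) are the macrophages of the brain tissue itself, and subdural CNS-associated macrophages (sdCAMs) are those of the leptomeninges and of the space around vessels. Wild-type (WT) and Ccr2-knockout (Ccr2KO) mice each gave sdCAMs and MG in 3 states. The first was untreated with a PBS injection, the second vehicle (CTL) with LPS, and the third BLZ945, an inhibitor of the CSF-1 receptor that depletes these macrophages, with LPS. An LPS difference in WT and Ccr2KO mice thus compared vehicle and LPS with no treatment and PBS. The reporter line (Ccr2Cre below) carried Ccr2CreERT2 and R26tdT on both alleles, so that tamoxifen, 2 mg a dose, turned on tdTomato (tdT) in cells with an active Ccr2 promoter. All reporter mice had been given BLZ945, and their MG, tdT+ sdCAMs and tdT- sdCAMs were taken after PBS or LPS. Cells were collected 12 h after the injection and 8 weeks after treatment, which in BLZ945 groups means after repopulation.

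Ripor2 encodes a cytoplasmic protein that binds and inhibits the small GTPase RhoA, a switch for actin contraction, cell shape and migration, and that is known from T cells, neutrophils, muscle and the inner ear. Dab2 encodes an endocytic adaptor that links receptors with an NPXY motif in their tails to clathrin and the AP-2 complex, and that also takes part in TGF-beta signalling. In macrophages Dab2 is known as a gene of resident and alternatively activated cells, and in the brain it is used as a marker of border macrophages rather than of resting MG.

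In RefSeq's GRCm38.p6 annotation, Ripor2 lay on chromosome 13 at 24501524 to 24733806 and Dab2 on chromosome 15 at 6299788 to 6440715, both protein coding. The build behind the deposited counts was named ambiguously, so these positions are RefSeq's and not those of the count tables. RefSeq's promoter table matched both genes, with 3 start sites for Ripor2 and 2 for Dab2, all on the plus strand, and the counts, which are per gene, do not show which start was used. The first Ripor2 window, 24581939 to 24582187, lay inside the gene's span, which begins at 24501524. The bases before that beginning were not searched. The 249 bases before both Dab2 starts are shown because these starts differ in composition, and those before the third Ripor2 start because it was the only Ripor2 window with a match. Capitals mark matches to the motifs searched.

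Dab2 start 1, chr15:6299539-6299787: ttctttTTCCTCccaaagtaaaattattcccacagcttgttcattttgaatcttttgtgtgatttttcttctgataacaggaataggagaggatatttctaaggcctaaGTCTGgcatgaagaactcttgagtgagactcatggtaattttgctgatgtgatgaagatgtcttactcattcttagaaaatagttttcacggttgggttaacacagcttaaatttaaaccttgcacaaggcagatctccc
Dab2 start 2, chr15:6386498-6386746: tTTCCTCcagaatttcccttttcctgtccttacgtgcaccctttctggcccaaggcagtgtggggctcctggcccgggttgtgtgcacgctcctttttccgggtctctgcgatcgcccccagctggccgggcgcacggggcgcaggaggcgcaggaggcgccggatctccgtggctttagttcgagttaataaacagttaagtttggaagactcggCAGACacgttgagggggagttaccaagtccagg
Ripor2 start 3, chr13:24638398-24638646: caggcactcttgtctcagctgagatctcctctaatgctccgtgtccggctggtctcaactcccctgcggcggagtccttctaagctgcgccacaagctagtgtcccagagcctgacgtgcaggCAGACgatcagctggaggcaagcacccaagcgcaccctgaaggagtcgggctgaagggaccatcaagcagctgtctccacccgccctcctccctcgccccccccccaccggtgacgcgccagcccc

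The second Dab2 window held 59.8% G and C with 17 CG pairs, against 36.5% and 1 CG pair in the first. Both Dab2 windows held a match to the core of PU.1 (GAGGAA, present in 23.1% of all 32851 windows of this length) and to the SMAD box (CAGAC, in 42.1%). The third Ripor2 window held a SMAD box only, and the first and second held none of the motifs. Neither gene's windows matched the NF-kB consensus (in 3.85% of windows), AP-1 (TGANTCA, 6.74%), FOXO (TGTTTAC, 3.15%), the ISRE core (2.96%) or CACGTG (6%), on either strand and with no overlap between matches. A match describes letters and not a bound site, and windows without one say nothing of the factor.

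Library totals were 1705930 to 7699790 counts in WT sdCAMs, 2060240 to 9850283 in reporter sdCAMs and 7497764 to 11330781 in the other libraries. Apart from the tdT+ library of mouse 5 after LPS, the sorted cells carried their markers. The 7 microglial markers used summed to 7240 to 46315 TMM-scaled CPM (CPM, counts relative to library size, with TMM factors for composition over all 54 libraries) in MG, and the 10 sdCAM markers summed to 1389 to 26795 in sdCAMs and to 175 to 964.5 in MG. Microglial markers were also present in sdCAM libraries, at a median of 2.72 to 38% of their level in MG of the same mouse. The tdT+ library of mouse 5 after LPS stood apart with 82.6%, and the LPS differences of tdT+ sdCAMs are given without it as well. Other reporter sdCAM results after LPS include it, apart from fits that leave out each library in turn. This library had the lowest sdCAM marker sum, 1389 CPM, and its microglial markers summed to 9813 CPM, within the range of MG. Neutrophil markers, of which Ly6g was at 0 in every library, summed to 16.3 to 3313 CPM in sdCAMs after LPS against 0 to 94.6 without. Ccr2 itself lay at 17 to 51 CPM in untreated WT sdCAMs and at 2.33 to 5.21 CPM in untreated Ccr2KO sdCAMs, and at most at 0.755 CPM in WT sdCAMs after vehicle and LPS, so that it checks the genotype only without LPS. The index numbers of a pair of reporter columns (tdT- of mouse 1 and tdT+ of mouse 7, both after LPS) conflicted with the labels. With columns as named, 2 of 24 mice had libraries with opposite sex-linked expression, against 0 with those 2 columns exchanged. Results use the columns as named unless an exchange is stated, also where libraries of the same mouse are set side by side.

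Dab2 was abundant in sdCAMs and scarce in MG without LPS, and after LPS the levels approached each other from both sides. In untreated WT mice Dab2 was at 2662, 2907 and 2235 TMM-scaled CPM in sdCAMs and at 26.7, 28.2 and 21.4 CPM in MG of mice 9, 14 and 15. After vehicle and LPS it was at 817.4, 517.4 and 568.4 CPM in sdCAMs and at 475.3, 157.7 and 282.7 CPM in MG of mice 1, 4 and 6. No library of untreated sdCAMs overlapped with those after LPS, and none of untreated MG did. The fitted log2 difference with LPS was -1.91 ± 0.621 (SE) in WT sdCAMs and 3.59 ± 0.341 in WT MG, and the difference between these responses was -5.6 ± 0.62. As the values behind the choice, these carry no test.

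Ripor2 followed the same plan at lower levels in WT mice. Untreated sdCAMs of mice 9, 14 and 15 held 70.8, 48.7 and 87 CPM, and MG of the same mice 20.3, 13.1 and 16.5 CPM. With LPS the levels were 26.8, 33.8 and 27.9 CPM in sdCAMs and 157.1, 148.6 and 133.6 CPM in MG of mice 1, 4 and 6. Here the order of the cell types was exchanged, since MG lay above sdCAMs in all 3 mice after LPS and below them in all 3 untreated mice. The log2 difference was -1.08 ± 0.458 in sdCAMs and 3.14 ± 0.181 in MG, with -4.31 ± 0.474 between them. Of 10015 genes tested in both WT cell types, 2 (0.02%) were called lower in sdCAMs and higher in MG, where a call is an adjusted p under 0.05 in edgeR's quasi-likelihood test with Benjamini-Hochberg adjustment and a log2 difference over 1 in size. These were Rassf3 and Trps1. Ripor2 and Dab2 had the direction but were not among them. Because these libraries served for the choice, the WT values describe the opposite movement and do not test it.

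**Figure D1:**
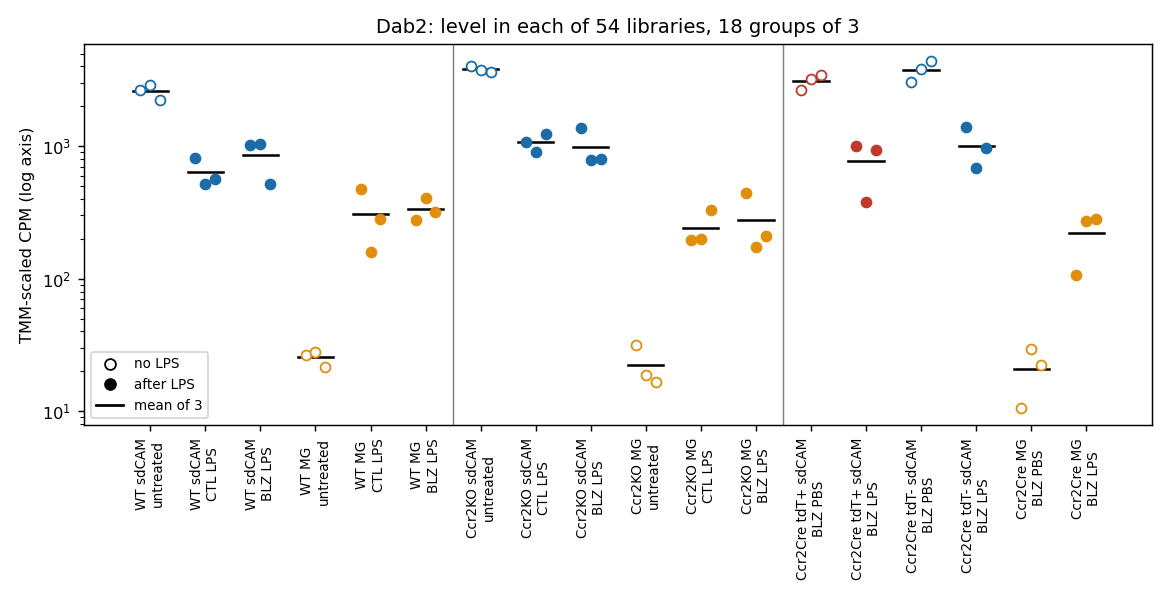
Dab2 level in every library, as TMM-scaled CPM on a log axis, for the 18 groups of 3 (open points without LPS, filled points after LPS, black bars the mean of 3; tdT+ sdCAMs in red, other sdCAMs in blue, MG in orange). Means of sdCAMs lie between 634.4 and 3800 CPM, those of MG without LPS between 20.8 and 25.4 CPM, and those of MG after LPS between 221.6 and 334.2 CPM.

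**Figure D2:**
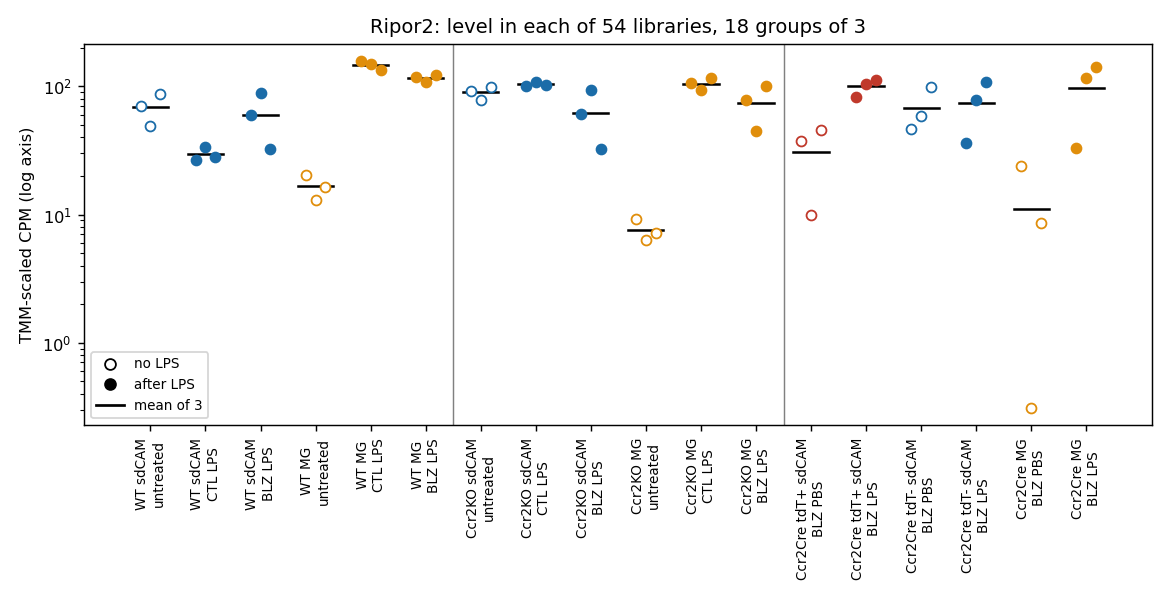
Ripor2 level in every library, drawn as for Dab2. The MG means without LPS, 7.58 to 16.7 CPM, are the lowest of the 18 groups, and the reporter MG after PBS spread from 0.31 to 24 CPM.

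The WT sdCAM levels depended on how libraries were scaled. In the 3 WT sdCAM libraries after vehicle and LPS, the 50 most abundant genes took 55.3 to 63.5% of counts, and Saa3, an acute-phase serum amyloid gene, took 23 to 35.8%, against 23.7 to 26.2% and 0.00264 to 0.167% in untreated WT sdCAMs. On library totals alone, with no composition scaling, the log2 difference in WT sdCAMs was -2.59 ± 0.82 for Ripor2 and -3.38 ± 0.908 for Dab2, while the median of all genes moved to -1.55. With median-of-ratios size factors the values were -1.07 and -1.9. Both genes lay below the median of all genes on each of these scales. The order of the cell types for Dab2 after vehicle and LPS did depend on the scale, since the WT means on library totals were 249.4 CPM in sdCAMs and 405.9 CPM in MG, against 634.4 and 305.3 TMM-scaled CPM.

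These same libraries also carried a mark. The labels put IEG_correction, which they do not explain, on 6 WT sdCAM libraries. These were all 3 after vehicle and LPS, mice 9 and 14 of the untreated group and mouse 12 of the BLZ945 and LPS group. Ripor2 was at 26.8 to 33.8 CPM in the 4 marked libraries after LPS, against 59.7 and 88.2 CPM in the unmarked libraries after BLZ945 and LPS (mice 8 and 11) and 87 CPM in the unmarked untreated library. The marked untreated libraries of mice 9 and 14 held 70.8 and 48.7 CPM. In the group given BLZ945 and LPS, the marked library of mouse 12 held 32.7 CPM of Ripor2, 522.7 CPM of Dab2 and 21% of counts in Saa3. With the mark as a covariate, the WT sdCAM difference was -0.82 ± 0.447 for Ripor2 and -1.85 ± 0.476 for Dab2. After vehicle and LPS no unmarked WT sdCAM library was present, so that LPS without BLZ945 and the combination of LPS and the mark cannot be told apart there.

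**Figure D3:**
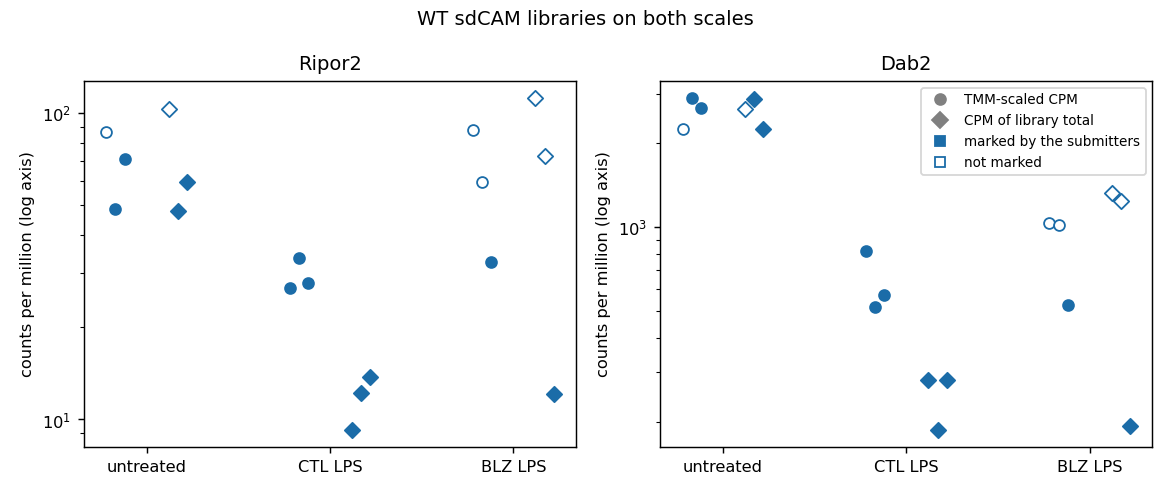
Ripor2 (left) and Dab2 (right) in the 9 WT sdCAM libraries, in CPM on a log axis, with TMM scaling (circles) and on library totals (diamonds), filled where the labels mark IEG_correction. The marked libraries after LPS are the lowest on both scales, at 26.8 to 33.8 TMM-scaled CPM of Ripor2 and 517.4 to 817.4 of Dab2.

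Ccr2KO mice were the first test on libraries that the choice had not used. Dab2 moved in opposite directions there too. Untreated Ccr2KO sdCAMs held 4007, 3772 and 3622 CPM and those after vehicle and LPS 1082, 900.2 and 1230 CPM. In MG the values were 31.8, 18.9 and 16.7 CPM untreated and 197, 198 and 330.4 CPM after LPS. Neither pair of groups overlapped. Dab2 fell 3.55-fold in sdCAMs (log2 -1.83 ± 0.202, edgeR adjusted p = 2.46e-05), where 21.5% of 11941 genes were called and 10.6% were called lower. In MG it rose 10.9-fold (log2 3.45 ± 0.364, edgeR adjusted p = 8.18e-06), where 19.4% of 11558 genes were called and 10.5% were called higher. The difference between the responses was -5.24 ± 0.474 on the log2 scale (edgeR adjusted p = 1.11e-06), with the 16th smallest p of 12890 genes, of which 6.88% were called and 4% in this direction.

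Ripor2 kept its rise in Ccr2KO MG, but a fall in sdCAMs was not seen. Untreated MG held 9.15, 6.34 and 7.24 CPM and MG after LPS 105.8, 93.6 and 116.5 CPM, with no overlap. The rise was 14.1-fold (log2 3.82 ± 0.282, edgeR adjusted p = 3.51e-07). In Ccr2KO sdCAMs the values were 91.5, 78.3 and 99.6 CPM untreated and 100.5, 108.1 and 103.5 CPM after LPS, so that the libraries after LPS lay above the untreated ones by a small margin. On library totals the groups overlapped, at 98, 82.8 and 107 CPM untreated and 97.7, 103.4 and 99.3 CPM after LPS. The log2 difference was 0.21 ± 0.302 (95% interval -0.44 to 0.87, edgeR adjusted p = 0.663). Whether the sdCAM response of Ripor2 differed between WT and Ccr2KO mice was not tested, since the WT value entered the choice. The cell type by LPS difference of Ripor2 in Ccr2KO mice was -3.57 ± 0.445 (edgeR adjusted p = 3e-05), with the 84th smallest p, and came from the MG side.

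Genes that were called lower in sdCAMs and higher in MG after LPS were few in Ccr2KO mice as well, 13 of 10983 genes tested in both cells (0.118%). Dab2 was among these 13 and Ripor2 was not. The others were Hip1, Ctsc, Ahr, Alox5, Tgfbi, C4b, Deptor, Prune2, Ap1s2, Sdc3, Cyp4f16 and Clec4n. Hip1, which encodes a protein of clathrin-coated pits, had the lowest value in sdCAMs, with log2 -3.08 in sdCAMs and 2.41 in MG.

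In the reporter line, where all mice had repopulated after BLZ945, Dab2 again fell in sdCAMs. The tdT+ sdCAMs held 2658, 3209 and 3468 CPM after PBS (mice 174, 175 and 177) and 1008, 376.6 and 934.2 CPM after LPS (mice 1, 5 and 7). The tdT- sdCAMs held 3030, 3858 and 4375 CPM after PBS and 1387, 679.2 and 966.8 CPM after LPS. The groups did not overlap in either population. Dab2 fell 4.02-fold in tdT+ sdCAMs (log2 -2.01 ± 0.401, edgeR adjusted p = 0.00409), where 13.4% of genes were called, and 3.73-fold in tdT- sdCAMs (log2 -1.9 ± 0.4, edgeR adjusted p = 0.00245), where 26.5% were called. Without the tdT+ library of mouse 5, which carried microglial markers, the tdT+ difference was -1.7 (edgeR adjusted p = 0.0043).

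Reporter MG held 10.6, 29.6 and 22.2 CPM of Dab2 after PBS and 107.2, 274.2 and 283.6 CPM after LPS, again without overlap. The log2 difference of 3.36 ± 0.593 (95% interval 1.97 to 4.74) did not pass in the 6 reporter MG libraries alone (edgeR adjusted p = 0.0515), a fit in which 1.08% of 10882 genes were called. It passed with DESeq2 (adjusted p = 1.63e-06) and with all 18 reporter libraries in the fit (edgeR adjusted p = 0.000408). The cell type by LPS difference of Dab2, with tdT+ and tdT- sdCAMs averaged, was -5.35 ± 0.615 (edgeR adjusted p = 0.00017) and had the 3rd smallest p of 13309 genes, 2.15% of which were called.

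Ripor2 showed no fall in reporter sdCAMs, and in the tdT+ cells its fitted difference was upward. With columns as named, the tdT+ sdCAMs held 37.4, 10 and 45.3 CPM after PBS and 82.7, 105.2 and 112.8 CPM after LPS, with no overlap. With the pair of conflicting columns exchanged, 36.3 CPM stands in place of 112.8 CPM, and the groups overlap. The values that follow are for columns as named unless an exchange is stated. The log2 difference was 1.7 ± 0.523 (edgeR adjusted p = 0.0416), a 3.25-fold rise. It passed only narrowly, since the call was lost without any library of this comparison except the one of mouse 177, with 1.27 to 2.08 over the 6 fits, and without mouse 5 the value was 1.65 (edgeR adjusted p = 0.0772). With the pair of conflicting columns exchanged it was 1.28 (edgeR adjusted p = 0.161). In tdT- sdCAMs the groups overlapped, at 46.5, 58.3 and 99.4 CPM after PBS and 36.3, 78 and 107.6 CPM after LPS, and the log2 difference was 0.11 ± 0.51 (95% interval -0.97 to 1.2, edgeR adjusted p = 0.893). On library totals alone this value was -0.66 and the median of all genes moved by -0.79. Saa3 took 14.5 to 28.3% of counts in these tdT- libraries after LPS and 0.68 to 2.74% in the tdT+ libraries, and with the pair of conflicting columns exchanged these ranges were 2.74 to 28.3% and 0.68 to 14.5%.

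Reporter MG after PBS varied most. Ripor2 had 289, 3 and 86 counts there (24, 0.31 and 8.55 CPM) in mice 174, 175 and 177, in libraries of 10623650, 9841288 and 9281357 counts. These libraries had counts for 12333, 10815 and 12186 genes, and the 10815 of mouse 175 was the lowest of the 54 libraries. After LPS the levels were 33.2, 115.6 and 142.2 CPM, all above those after PBS. The log2 difference of 3.13 ± 1.234 (95% interval 0.26 to 6.01) did not pass (edgeR adjusted p = 0.308), nor did the cell type by LPS difference of -2.22 ± 1.033 (95% interval -4.38 to -0.06, edgeR adjusted p = 0.317). A response of the size seen in Ccr2KO MG lies within the MG interval.

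**Figure D4:**
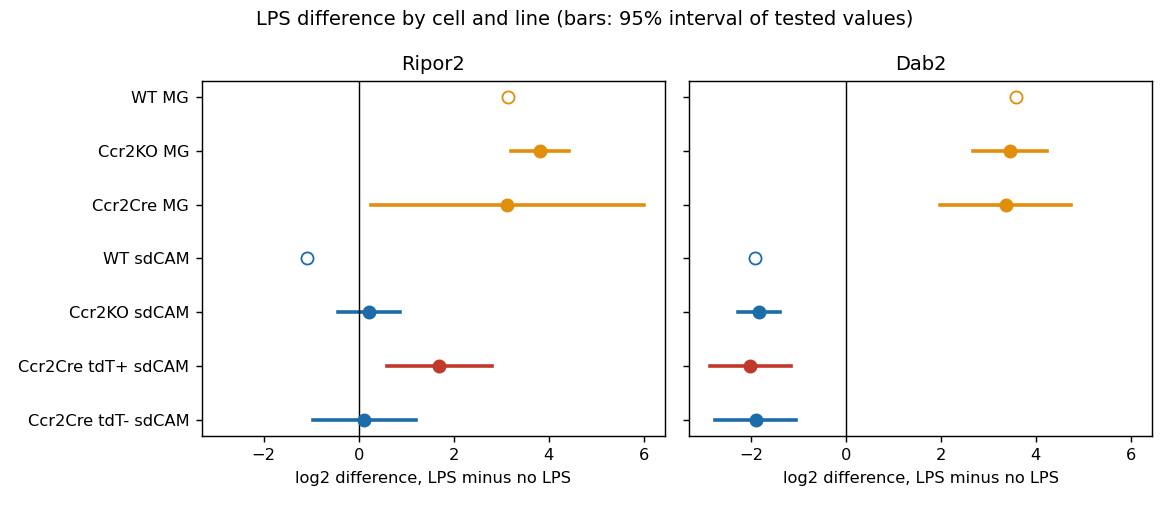
Log2 difference between LPS and no LPS for Ripor2 (left) and Dab2 (right) in each cell and line, from edgeR fits, with 95% intervals for tested values (filled) and no interval for the WT values that chose the genes (open). MG values lie between 3.13 and 3.82, Dab2 in sdCAMs between -2.01 and -1.83, and Ripor2 in sdCAMs between -1.08 in WT mice and 1.7 in tdT+ cells.

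The gap between the cell types shows the same change as a level. In untreated Ccr2KO mice Dab2 was 169-fold higher in sdCAMs than in MG (log2 7.4 ± 0.416, edgeR adjusted p = 1.51e-10, 15% of genes called) and Ripor2 11.8-fold higher (log2 3.56 ± 0.34, edgeR adjusted p = 2.11e-07). After vehicle and LPS the Dab2 difference was 2.15 ± 0.326 (edgeR adjusted p = 5e-05, 18.4% called), and after BLZ945 and LPS 1.84 ± 0.323 (edgeR adjusted p = 0.000292, 15.4% called). Dab2 thus stayed higher in sdCAMs. For Ripor2 the differences were -0.01 ± 0.298 (95% interval -0.64 to 0.61) and -0.27 ± 0.3 (95% interval -0.9 to 0.36), and neither passed (edgeR adjusted p = 0.987 and 0.572).

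Reporter mice gave a like order for Dab2. It was 162-fold higher in sdCAMs after PBS (log2 7.34 ± 0.594, edgeR adjusted p = 1.85e-07, 11.1% called) and 3.98-fold higher after LPS (log2 1.99 ± 0.44, edgeR adjusted p = 0.00706, 8.7% called). Ripor2 differed by 2.04 ± 0.797 after PBS (edgeR adjusted p = 0.111) and by -0.18 ± 0.712 after LPS (edgeR adjusted p = 0.928). After PBS the Ripor2 difference was 2.7 with the mouse as a block and passed there (edgeR adjusted p = 0.0415). In WT mice given BLZ945 and LPS, whose libraries did not enter the choice, Dab2 was 2.59-fold higher in sdCAMs than in MG (log2 1.37 ± 0.417, edgeR adjusted p = 0.0301, 17.7% called). That call was lost with the mouse as a block (edgeR adjusted p = 0.0595) and without any library of the comparison except the sdCAM library of mouse 12. Ripor2 was lower in those sdCAMs by a log2 difference of -0.95 ± 0.321 (edgeR adjusted p = 0.0476), which stayed under the fold limit of the call.

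Within mice, Dab2 in untreated MG was 0.957 to 1% of its level in sdCAMs in WT mice and 0.461 to 0.794% in Ccr2KO mice. After LPS the share was 27.3 to 61.2% over the 6 WT mice, 18.2 to 32.7% over the 6 Ccr2KO mice and 7.73 to 72.8% over the 6 reporter pairs, with the highest value in the pair that holds the tdT+ library of mouse 5. The lowest reporter value, 7.73% in the tdT- pair of mouse 1, and the 30.4% of the tdT+ pair of mouse 7 rest on the conflicting columns as named. Shares with these columns exchanged were not computed. The median of the sdCAM markers stayed far lower. This median level in MG was 0 to 0.405% of sdCAMs in every pair, and the sum of the markers was 1.01 to 4.46% without LPS and 2.82 to 16.7% after it, with 28.7% in the pair with mouse 5. Of these markers Stab1, a scavenger receptor, was present in MG at group means of 215.9 to 844.9 CPM. Ripor2 in MG was above sdCAMs of the same mouse in all 6 WT pairs, 4 of 6 Ccr2KO pairs and 4 of 6 reporter pairs after LPS, and in none of the 12 pairs without LPS. In bulk libraries, fewer cells with a transcript and less of it per cell cannot be told apart.

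**Figure D5:**
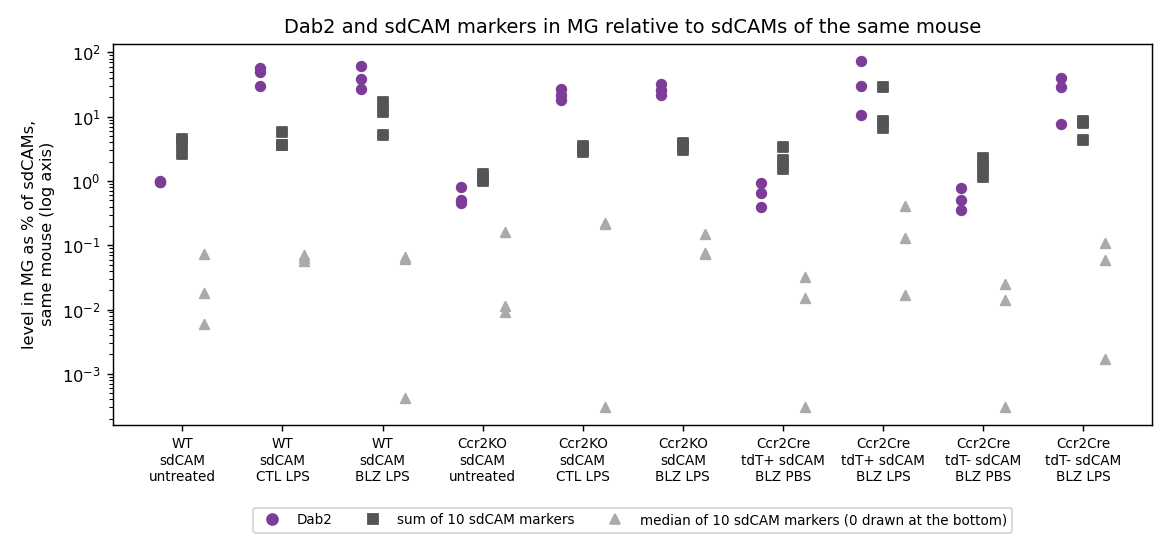
Level in MG as a percentage of the level in sdCAMs of the same mouse, on a log axis, for Dab2 (circles), the sum of 10 sdCAM markers (squares) and their median (triangles). Dab2 lies at 0.351 to 1% without LPS and at 7.73 to 72.8% after LPS, while the marker median stays at or under 0.405%. Reporter pairs are drawn with the conflicting columns as named.

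As a sum, neutrophil markers were higher with LPS in sdCAMs and stand beside the Dab2 falls. They summed to 360.1 to 3313 CPM in WT sdCAMs after vehicle and LPS, 78.1 to 125.5 in Ccr2KO sdCAMs and 16.3 to 2359 in reporter sdCAMs after LPS. Of the 8 markers, Ly6g, Retnlg, Ngp and Ltf had no counts in WT sdCAMs after vehicle and LPS or in tdT- sdCAMs after LPS. In tdT+ sdCAMs after LPS 6 of the 8 had none, and in Ccr2KO sdCAMs Ly6g and Retnlg had none. The sums therefore rest on part of the list and do not show that neutrophils were present. Any part of neutrophils in the results was not tested. The 10 sdCAM markers summed to 7866 to 8544 CPM in Ccr2KO sdCAMs after vehicle and LPS and to 20146 to 21078 CPM in untreated ones. In WT sdCAMs the ranges overlapped, at 12598 to 26795 CPM after vehicle and LPS and 11295 to 18080 CPM untreated. In reporter sdCAMs the tdT+ sums were 1389 to 7969.5 CPM after LPS and 11392 to 12581 CPM after PBS. The tdT- sums were 6775.5 to 9134 CPM after LPS and 15174 to 18272 CPM after PBS.

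Neither gene was called different between mice that had repopulated after BLZ945 and mice given vehicle. In Ccr2KO mice after LPS, BLZ945 sdCAMs held 60.8, 93.5 and 32.2 CPM of Ripor2 and 1363, 787.6 and 806 CPM of Dab2. The differences from vehicle were -0.76 ± 0.304 for Ripor2 (95% interval -1.42 to -0.1, edgeR adjusted p = 0.547) and -0.14 ± 0.196 for Dab2 (edgeR adjusted p = 0.897). In that comparison edgeR called 0 of 11941 genes (0%), with 998 at an unadjusted p under 0.05, and DESeq2 called 63. In MG the values after BLZ945 were 78.7, 44.8 and 101.2 CPM of Ripor2 and 445.2, 172 and 209 CPM of Dab2, which overlapped with vehicle. The differences were -0.5 ± 0.244 (edgeR adjusted p = 0.767) and 0.18 ± 0.326 (edgeR adjusted p = 0.964), with 0.0173% of genes called. In WT mice, where vehicle libraries had served for the choice, the differences were 0.95 ± 0.458 and 0.36 ± 0.602 in sdCAMs and -0.31 ± 0.164 and 0.14 ± 0.304 in MG for Ripor2 and Dab2, given without a test.

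Between genotypes, the groups after BLZ945 and LPS allowed a test. Both genotypes carried batch label 1, with library numbers 01 to 18 in WT and 37 to 54 in Ccr2KO mice. The paper applied a batch correction to its WT and Ccr2KO data, and none was applied here. A difference in preparation between these sets, if any, cannot be told apart from genotype. WT sdCAMs held 59.7, 88.2 and 32.7 CPM of Ripor2 and 1019, 1036 and 522.7 CPM of Dab2, within or near the range of Ccr2KO sdCAMs. The WT minus Ccr2KO differences were -0.21 ± 0.377 for Ripor2 (95% interval -1 to 0.58, edgeR adjusted p = 0.757) and -0.36 ± 0.36 for Dab2 (edgeR adjusted p = 0.536), where 8.35% of genes were called. The Ripor2 value turned to 0.03 with median-of-ratios size factors, which moved the median of all genes by 0.23. WT MG held 118.2, 109.2 and 123.3 CPM of Ripor2 and 278, 404.7 and 319.9 CPM of Dab2. Ripor2 was higher in WT MG by 0.61 ± 0.222 (edgeR adjusted p = 0.0471), under the fold limit, and Dab2 by 0.25 ± 0.359 (edgeR adjusted p = 0.649), with 9.69% of genes called.

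Neither gene was called different between tdT+ and tdT- sdCAMs with TMM scaling. After PBS the tdT+ minus tdT- difference was -1.15 ± 0.515 for Ripor2 (95% interval -2.24 to -0.05) and -0.28 ± 0.387 for Dab2, both with an edgeR adjusted p of 1, where 0.0236% of genes were called. After LPS it was 0.44 ± 0.512 (95% interval -0.64 to 1.53, edgeR adjusted p = 0.648) and -0.39 ± 0.387 (95% interval -1.21 to 0.44, edgeR adjusted p = 0.593), where 10.6% were called. On library totals alone, which moved the median of all genes by 1.03, Ripor2 passed after LPS, at 1.45 (edgeR adjusted p = 0.048), and Dab2 was at 0.57. With the pair of conflicting columns exchanged, the values after LPS turned to -0.41 and 0.1, and edgeR then called 0 genes.

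Ordered by mean level, Dab2 fell into blocks. The 4 sdCAM groups without LPS came first, at 3800 ± 194.2 (Ccr2KO), 3754 ± 678.5 (tdT-), 3112 ± 413.9 (tdT+) and 2602 ± 339.9 CPM (WT, SD, n = 3 each). The 6 sdCAM groups after LPS followed at means of 634.4 to 1071 CPM, then the 5 MG groups after LPS at 221.6 to 334.2 CPM, and last the 3 MG groups without LPS at 20.8 to 25.4 CPM. Of the 17 pairs of neighbours in this order, 14 overlapped in range, and the 3 that did not were the borders between these blocks. The border between sdCAMs and MG after LPS held with TMM scaling only. On library totals, WT sdCAMs after vehicle and LPS had a mean of 249.4 CPM, under the 279.4 to 438.7 CPM of MG after LPS. Such borders were counted for Dab2 and Ripor2 only, so no share over all genes stands beside them. The highest mean was 182.7 times the lowest.

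Ripor2 had no such blocks. Its order ran from 146.4 ± 11.9 CPM in WT MG after vehicle and LPS to 7.58 ± 1.43 CPM in untreated Ccr2KO MG, a ratio of 19.3, and 15 of 17 neighbours overlapped. The borders without overlap were below the top group and above the 3 MG groups without LPS, at 16.7 ± 3.58 (WT), 11 ± 12 (reporter) and 7.58 CPM. In between lay all 10 sdCAM groups, with and without LPS, at means of 29.5 to 104 CPM, among the other MG groups after LPS. WT sdCAMs after vehicle and LPS were the lowest sdCAM group, and tdT+ sdCAMs after PBS came next with 30.9 ± 18.5 CPM. On library totals, WT sdCAMs after vehicle and LPS had a mean of 11.7 CPM, below the 20.8 CPM of untreated WT MG.

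The genes most alike were sought by Pearson's r of log2 TMM-scaled CPM over the 18 group means, among 10512 genes with at least 10 CPM in some group. These means share libraries and scaling with the members, and the values are descriptions. For Dab2 the highest were C4b (r = 0.967), a complement component, Tgfbi (0.966), a matrix protein named for its induction by TGF-beta, Dok2 (0.951), an adaptor in tyrosine kinase signalling, Sema4a (0.948), a semaphorin, and Cd300ld (0.941), a receptor of the CD300 family. C4b went from 1041 CPM in untreated to 389.5 CPM in LPS-exposed Ccr2KO sdCAMs and from 3.02 to 32.8 CPM in MG. For Ripor2 they were Afap1l1 (0.935), an actin filament-associated protein, Lilrb4a (0.91), an inhibitory immunoglobulin-like receptor, Prune2 (0.864), Atrnl1 (0.862) and Stat2 (0.857), which carries interferon signals. Afap1l1 had means of 118.7 and 148.6 CPM in Ccr2KO sdCAMs without and with LPS and 40.8 and 166.9 CPM in MG. Between Ripor2 and Dab2 themselves, r was 0.61 and Spearman's rho 0.18 over the 18 means.

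The machinery around Dab2 was read from lists chosen with results of these data known, each by its calls in Ccr2KO mice. Of 31 clathrin coat and AP-2 genes, 8 fell and none rose in sdCAMs with LPS, where 10.6% of all genes tested were called lower and 10.9% higher, at a median log2 difference of -0.25 against -0.05 over all genes. In MG, 2 of 30 rose and 3 fell (median -0.29 against 0), against 10.5% and 8.89% of all genes. The list's members include Cltc, the clathrin heavy chain, which fell by 2.04 in sdCAMs and by 1.06 in MG, and Eps15, a coated-pit scaffold, which fell by 1.21 in sdCAMs and had -0.04 in MG. The cell type by LPS difference called 1 of 31 upward, Sh3kbp1 (1.01), where 2.88% of all genes were called upward, and 3 downward, where 4% were, including Hip1 (-5.46 ± 0.536, edgeR adjusted p = 2.42e-06) and Eps15 (-1.13).

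Of the receptors that such adaptors can carry, 5 of 11 tested fell in sdCAMs (10.6% of all genes) and none rose, with a median of -0.69. Stab1 fell by 2.91, and Lrp6, a Wnt co-receptor, and Tgfbr2, a TGF-beta receptor, by 2.68 each, while their MG values were 0.21, 0 and -0.95, none of them called. In MG 3 of 11 rose (10.5% of all genes) and 1 fell (8.89%). The cell type by LPS difference was called for 4 of 12 tested, all downward (4% of all genes), among them Stab1 (-3.09), Lrp6 (-2.65) and Tgfbr2 (-1.7). Of 18 TGF-beta receptors and Smads, 4 fell and none rose in each cell, against 10.6% of all genes called lower in sdCAMs and 8.89% in MG. Tgfb1, the ligand, fell by 1.08 in sdCAMs and 1.56 in MG and Tgfbr1 by 1.47 and 1.32. Eng, a co-receptor, fell in MG by 1.76, with 1.02 in sdCAMs, and had a cell type difference of 2.81 (edgeR adjusted p = 0.000926), and Ski, a Smad repressor, had -0.87 and was not called.

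Around Ripor2, RhoA and its regulators showed 6 of 30 higher and 4 lower in sdCAMs and 2 of 28 higher and 3 lower in MG, at medians of 0 and -0.08. Over all genes 10.9% were called higher and 10.6% lower in sdCAMs, and 10.5% and 8.89% in MG, so the 4 lower in sdCAMs and the calls in MG lay near the share of all genes or under it. Those with the smallest p for the cell type difference were Arhgef3, an exchange factor for RhoA (-2.97 ± 0.279, edgeR adjusted p = 1.39e-06), Gna13, a G protein upstream of RhoA (2.03), and Cfl1, cofilin (1.07). Arhgef3 fell by 2.75 in sdCAMs and had 0.26 in MG. Gna13 and Cfl1 both rose by 1.88 in sdCAMs, with -0.11 and 0.84 in MG, where neither was called. The 14-3-3 proteins with Hdac6, known partners of RIPOR2, had 1 of 7 higher in sdCAMs and 1 of 7 lower in MG, near the shares over all genes. That last gene was Ywhah (-1.26), which also had the list's only call of the cell type difference (1.43), while Ywhaz (0.7) and Ywhae (0.66) stayed under the fold limit.

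Foxo factors and their targets were included because Ripor2 is known as a Foxo1-dependent gene of T cells. In sdCAMs 4 of 17 rose and 4 fell, against 10.9% and 10.6% of all genes, and in MG 5 of 16 rose and 4 fell, against 10.5% and 8.89%. Klf4, a transcription factor, rose by 6.55 in MG and 2.46 in sdCAMs (cell type difference -4.04), whereas Txnip, a thioredoxin inhibitor, fell by 1.74 in sdCAMs with -0.07 in MG, and Sesn1, a stress-response gene, fell by 2.52 with -0.3 in MG. The cell type difference was called for 5 of 18, 4 of them downward, against 6.88% of all genes and 4% downward.

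Relatives of both genes had other patterns in Ccr2KO mice. Numb, an endocytic adaptor related to Dab2, fell in MG by 1.71 (edgeR adjusted p = 1.86e-05; 8.89% of genes called lower there) and had -0.58 in sdCAMs, and its cell type difference was 1.16. Ripor1 had -1.77 in sdCAMs (edgeR adjusted p = 0.0672) and -0.1 in MG. Numbl was at 0.963 to 5.84 CPM and Dab1 at 0 to 5.62 CPM in the group means, neither of them called, and Ripor3 passed the low count filter in none of these fits.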

How the data were processed

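The authors amplified RNA of sorted cells with a SMARTer Ultra Low Input kit, prepared Nextera XT libraries and sequenced single reads on an Illumina HiSeq instrument. Per the labels they used STAR 2.7.11a and featureCounts 2.0.8. They deposited raw read counts for each gene symbol in 3 tables of 18 columns, without normalization and no molecular identifiers, so amplification duplicates remain in them. The annotation was named with both mm10 and GRCm39, and the strand setting is not given in the sources used here. Reads of genes that overlap on the opposite strand therefore cannot be told apart. The 3 libraries of a group came from different mice, so in fits of a single population the p-values measure the spread between mice. Fits that join MG with sdCAMs, or tdT+ with tdT- sdCAMs, held several libraries of a mouse. The main fits treated these as independent.

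The comparisons were computed from these counts in edgeR 4.0.16 under R 4.3.3 (filterByExpr, TMM scaling, quasi-likelihood F-test, two-sided, Benjamini-Hochberg adjustment over all genes tested). Levels are CPM with TMM factors over all 54 libraries, and they are not divided by gene length, so they were not compared between genes. The fits were tested on simulated data with 200 changed genes. The members, the gene lists and the tests were chosen with earlier results of these data known. Genes named besides the members were their relatives, up to 3 tested genes of each list with the smallest p in the Ccr2KO cell type by LPS comparison, and the 5 most alike. The rest, among them Cltc, Tgfb1 and Tgfbr1, and the genes called in both cells, were named after their values were seen. Some results that this rule would name are not reported here.

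Columns were matched to samples by library number, mouse and population, and 0 columns were left over. In Ccr2KO mice 12 LPS libraries had titles at odds with their cell type characteristic and library name, and the latter were used. MG and sdCAMs of a mouse share its number, which the labels give. The correlation of their deviations from the group means over genes was -0.04 to 0.2 over 30 pairs, and blocked fits served as alternatives. Other alternatives were DESeq2 1.42.0, median-of-ratios size factors, other low count filters, fits of the compared libraries alone, leaving out each library, exchange of the 2 conflicting columns, the IEG mark as a covariate and, added after seeing the data, library totals without composition scaling.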

Additional observations from a re-analysis of the deposited data

Results flagged for a closer look

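The response to LPS differed between sdCAMs and MG for Dab2 in both sets of mice that the choice of genes had not used, and for Ripor2 in 1 of them. In Ccr2KO mice the cell type by LPS difference was -5.24 on the log2 scale for Dab2 and -3.57 for Ripor2, and in reporter mice it was -5.35 for Dab2. Each passed edgeR's test of the difference itself. Leaving out each library in turn gave -5.58 to -4.98, -3.73 to -3.49 and -5.75 to -5.04, and each of these fits kept the call.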

How the results depend on the processing

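Over 540 refits of the comparisons of both genes, 489 kept direction and call. The LPS and cell type by LPS results of both genes in Ccr2KO mice, and those of Dab2 in reporter sdCAMs and in the reporter cell type by LPS comparison, kept both in all refits run. For these, fits with a mouse as replicate block, where they apply, changed no call. Elsewhere the block gave 2.7 for Ripor2 in reporter sdCAMs against MG after PBS and 1.33 for Dab2 in WT sdCAMs against MG after BLZ945 and LPS. The causes of the changes given here were not tested.

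For Ripor2, reporter sdCAMs against MG after PBS passed with DESeq2 (2.05) and without a filter (2.06), and the reporter cell type by LPS value did without a filter (-2.29). Values with no call that turned sign were tdT- LPS (-0.01 without a filter, -0.66 on library totals), Ccr2KO sdCAMs against MG after vehicle and LPS (0.05 with DESeq2 or median-of-ratios factors, 0.01 with a mean of 10 counts, 0.04 in the compared libraries) and WT against Ccr2KO sdCAMs (0.03 with DESeq2 or median-of-ratios factors, 0.15 on totals). The tdT+ LPS call was lost with 2 columns exchanged (1.28), which also turned tdT+ against tdT- after LPS (-0.41, and 0.1 for Dab2). On totals those were 1.45, which passed, and 0.57. Dab2 in reporter MG passed with DESeq2 (3.46), no filter (3.47), totals (3.71) and 18 libraries (3.42). Dab2 in WT sdCAMs against MG lost its call in the compared libraries (1.46) and on totals (1.07), and WT against Ccr2KO sdCAMs was 0 on totals.

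Leaving out single libraries gave, for Ripor2, 1.27 to 2.08 (tdT+ LPS), -0.31 to 0.44 (tdT- LPS), -0.57 to 0.19 and 1.46 to 3.37 (reporter sdCAMs against MG after LPS and PBS), -0.57 to 0.25 (WT against Ccr2KO sdCAMs), -0.13 to 0.04 and -0.68 to 0.05 (Ccr2KO sdCAMs against MG after vehicle or BLZ945 and LPS) and -1.31 to -0.68 (WT sdCAMs against MG). For Dab2 it gave 3.03 to 3.81 (reporter MG, passing without the PBS library of mouse 175), 1.2 to 1.6 (WT sdCAMs against MG), -0.54 to 0.07 (WT against Ccr2KO sdCAMs) and -0.35 to 0.46 (Ccr2KO MG, BLZ945 against vehicle).

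Counts of called genes that moved over 1.5 times are given with the reported count first. The reporter cell type by LPS comparison had 286 (878 with DESeq2, 554 without a filter, 120 exchanged), reporter sdCAMs against MG after LPS 1158 (2000 with DESeq2, 2056 on totals, 616 exchanged), reporter MG 118 (853 with DESeq2, 268 without a filter, 575 with 18 libraries), tdT+ LPS 1698 (1097 exchanged) and tdT- LPS 3371 (1513 exchanged). The tdT+ against tdT- comparison had 3 after PBS (83 with DESeq2, 105 without a filter, 30 in the compared libraries, 10 with the block) and 1352 after LPS (3829 on totals, 664 in the compared libraries, 0 exchanged). WT against Ccr2KO sdCAMs had 1107 (2078 with DESeq2, 146 on totals, 14 in the compared libraries) and WT sdCAMs against MG 2319 (1480 on totals, 771 in the compared libraries, 1082 with the block). BLZ945 against vehicle in Ccr2KO had 0 in sdCAMs (63 with DESeq2, 145 without a filter, 1 with median-of-ratios factors or on totals, 2 in the compared libraries) and 2 in MG (27 with DESeq2, 70 without a filter, 1 on totals, 0 in the compared libraries). Of the most alike genes, Spearman's rho kept 1 of 5 for Ripor2 and 2 of 5 for Dab2, and Pearson's r over 54 libraries 4 of 5 for each. Low counts (29 to 91 of Ripor2 in WT sdCAMs after vehicle and LPS) limit those values.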
